A study of Mus musculus with 10 samples.

Results

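Phase II conjugation enzymes attach a polar group to drugs, pollutants, hormones and bile pigments so that the products leave in bile or urine. The set described here was formed from gene symbols alone. It took every symbol of the deposited count table that names a glutathione S-transferase of the cytosolic or kappa classes, a microsomal glutathione transferase (Mgst), a UDP-glucuronosyltransferase (Ugt1 to Ugt3) or a sulfotransferase (Sult1 to Sult5), with a mean count of 10 or more over the 10 livers. The table holds 24537 symbols, of which 64 matched by name and 47 of those had enough reads. They are 20 glutathione S-transferases, 2 microsomal glutathione transferases, 18 UDP-glucuronosyltransferases and 7 sulfotransferases. The minimum fell in a wide gap, since the lowest symbol kept, Sult1c2, had a mean count of 65.8 and the highest left out, Sult4a1, one of 4.1. The other 16 symbols left out had mean counts of 3.2 or less and include Sult1e1, the estrogen sulfotransferase, and Sult2a1 to Sult2a6, hydroxysteroid sulfotransferases.

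RNA came from whole livers of male mice that had all received an adeno-associated virus of serotype 8 (AAV8), which carried Staphylococcus aureus Cas9 under TBG, a hepatocyte promoter, and a guide RNA under U6. The 3 young controls (Rosa26-KO) got a Rosa26 guide at 7 months of age and were sampled at 9 months. The 3 old controls (Rosa26-KO) got the same virus at 23 months and were sampled at 25 months. The 4 old Cd44 knockout livers, also of 25 months, got a Cd44 guide at 23 months, guide 4 in replicates 1 and 2 and guide 2 in replicates 3 and 4. No group went without virus and Cas9, no young knockout group was analysed here, and the share of edited hepatocytes is not given in the sources used here. The labels do not say that each library is a separate animal, so p-values measure the spread between these samples.

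Total counts ran from 15821198 to 21710228 per liver. Cd44, the targeted gene, is also made by leukocytes, which the TBG promoter does not reach. It was at 16.6, 11.1 and 10.1 CPM (counts scaled to library size) in the young controls and at 14.2, 30.0 and 25.9 CPM in the old controls. The livers labelled knockout gave 18.9 and 29.0 CPM in guide 4 livers and 17.6 and 13.1 CPM in guide 2 livers, which overlaps the old controls. The log2 fold change of Cd44, knockout minus old controls, was -0.25 ± 0.30 (edgeR adjusted p 0.896), so the knockout direction rests on the labels. Hepatocyte markers were abundant in every liver, with a summed level of 96700 to 126000 CPM in young controls, 81200 to 110000 CPM in old controls and 86700 to 90400 CPM in knockout livers. The sum covers the 7 of 8 listed markers found in the count table. Of these Hnf4a, lower in old controls as given below, had 1167, 1188 and 1069 CPM in young and 437, 475 and 842 CPM in old controls. Several lists of immune, endothelial and stromal markers had more genes higher in old controls than the 14.1% of all genes tested. Of the 8 Kupffer and other macrophage markers 6 were higher in old controls by edgeR's quasi-likelihood test, and their summed level was 127 to 164 CPM in young and 245 to 1000 CPM in old controls. The neutrophil and marrow sum was 3.29 to 8.63 CPM in young and 13.3 to 238 CPM in old controls, with 4 of 4 tested markers higher. Old replicate 2 stood apart in both, at 1000 CPM of macrophage markers against 245 and 427 CPM and at 238 CPM of neutrophil and marrow markers against 15.0 and 13.3 CPM in the other old controls. The endothelial sum was 110 to 158 and 229 to 246 CPM, with 5 of 6 higher. Of the other lists 4 of 6 stellate and fibroblast markers, 3 of 5 T and NK cell markers and 3 of 5 B and plasma cell markers were higher, and 0 of 5 cholangiocyte markers passed. The erythroid sum was 729 to 775 CPM in young and 832, 1030 and 551 CPM in old controls, on both sides of the young ones, with 1 of 3 tested markers lower and none higher. No marker was at 0 in all livers, and Cftr, Gzmk, Mpo and Ly6g were at 0 in some. In whole tissue, fewer cells of a type and less RNA per cell cannot be told apart, and the part of these other cells in the values below was not tested.

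The glutathione S-transferases join glutathione to electrophiles such as epoxides and lipid peroxidation products. Alpha, mu and pi class enzymes dominate in liver, and many of their genes are classic targets of the oxidant sensor NRF2 and of the xenobiotic receptors CAR and PXR. Microsomal glutathione transferases sit in membranes and do similar chemistry. UDP-glucuronosyltransferases of the endoplasmic reticulum transfer glucuronic acid to bilirubin, steroids and drugs. Sulfotransferases of the cytosol transfer sulfate from the donor PAPS to phenols, catecholamines, steroids and bile acids. The genes lie in clusters of duplicates, so several share long stretches of sequence. In GENCODE M21 on GRCm38, the annotation used here, the alpha genes lie on chromosome 9 except Gsta3 on chromosome 1, the mu genes on chromosome 3, the pi genes on chromosome 19, Ugt1a on chromosome 1, Ugt2a and Ugt2b on chromosome 5, Ugt3a on chromosome 15 and Sult2a on chromosome 7.

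Per length of exon, the most abundant member was Gstm1 with 3187 CPM per kilobase over the 10 livers, followed by Mgst1 with 1953 and Gstp1 with 1328 CPM per kilobase. The least abundant was Sult1c2 with 1.84 CPM per kilobase. With the Ugt1a locus entered once, the members together took 2.00% of the normalised counts.

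Promoters are shown for 5 of the 10 members that passed the age test described below. Gsta1, Gstm1 and Mgst1 are shown for the pattern matches marked in them, and Ugt2b5 and Ugt2b37 for a run they share. No match to those patterns was found for Gsta4, Gsto1, Sult2a7, Ugt2b1 and Ugt3a2, which also passed and are not shown. They come from RefSeq on GRCm38.p6, from 250 bases before to 50 bases after the annotated start, read 5′ to 3′ on the strand of the gene. Gsta1 (chr9:78230419-78230718, plus strand) and Gstm1 (chr3:108017924-108018223, minus strand) have in capitals the letters GCGTG, the core of the element bound by the aryl hydrocarbon receptor, beginning at position -2 and position -76 from the start. Mgst1 (chr6:138140277-138140576, plus strand) has in capitals a match on the other strand to TGACNNNGC, the core of the antioxidant response element bound by NRF2, beginning at position -56.
Gsta1: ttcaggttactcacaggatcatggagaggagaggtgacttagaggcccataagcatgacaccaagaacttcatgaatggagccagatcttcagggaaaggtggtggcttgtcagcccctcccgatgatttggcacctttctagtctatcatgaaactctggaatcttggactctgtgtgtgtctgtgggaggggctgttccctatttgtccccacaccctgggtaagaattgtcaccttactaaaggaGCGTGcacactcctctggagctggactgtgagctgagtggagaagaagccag
Gstm1: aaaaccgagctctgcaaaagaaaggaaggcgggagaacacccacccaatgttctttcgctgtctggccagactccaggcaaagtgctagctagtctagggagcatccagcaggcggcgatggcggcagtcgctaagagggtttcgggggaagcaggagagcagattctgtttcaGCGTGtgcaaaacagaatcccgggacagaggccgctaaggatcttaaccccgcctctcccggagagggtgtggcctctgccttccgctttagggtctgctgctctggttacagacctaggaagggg
Mgst1: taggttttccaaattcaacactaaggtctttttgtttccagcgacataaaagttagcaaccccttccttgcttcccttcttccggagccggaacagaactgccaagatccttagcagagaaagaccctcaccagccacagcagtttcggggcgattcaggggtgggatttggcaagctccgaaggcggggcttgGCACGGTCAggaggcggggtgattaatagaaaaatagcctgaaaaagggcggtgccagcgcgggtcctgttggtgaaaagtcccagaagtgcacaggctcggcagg
Both patterns are common. On either strand GCGTG stood in 32.4% of all 32851 RefSeq promoters of this length and in 21.2% of the 52 promoters found for 42 of the 47 members, and TGACNNNGC stood in 12.4% of all and 7.69% of member promoters.

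The next pair, from the Ugt2b cluster, shows how close the copies are. Ugt2b5 (chr5:87140291-87140590, minus strand) and Ugt2b37 (chr5:87254739-87255038, minus strand) have the longest run of identical letters between them, 72 bases, in capitals.
Ugt2b5: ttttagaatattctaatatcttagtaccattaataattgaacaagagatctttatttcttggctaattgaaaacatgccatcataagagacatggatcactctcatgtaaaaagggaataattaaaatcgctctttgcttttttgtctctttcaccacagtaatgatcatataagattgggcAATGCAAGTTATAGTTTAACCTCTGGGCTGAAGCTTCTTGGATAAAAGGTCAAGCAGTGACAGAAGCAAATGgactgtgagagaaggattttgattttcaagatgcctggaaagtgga
Ugt2b37: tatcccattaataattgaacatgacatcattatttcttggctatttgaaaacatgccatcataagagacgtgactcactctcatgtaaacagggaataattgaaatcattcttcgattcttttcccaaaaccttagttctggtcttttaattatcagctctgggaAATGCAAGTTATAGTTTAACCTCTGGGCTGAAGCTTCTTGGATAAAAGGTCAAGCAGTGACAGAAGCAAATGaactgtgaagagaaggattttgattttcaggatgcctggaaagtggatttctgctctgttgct
In a gapped alignment, 82.7% of the 300 positions were identical between Ugt2b5 and Ugt2b37, 87.0% between Ugt2b5 and Ugt2b38 and 91.3% between Ugt2b37 and Ugt2b38. Ugt2b1 shared between 59.3% and 62.3% of positions with the other 6 Ugt2b promoters. Another form of the HNF4 site had been searched first, so the patterns given were chosen after results were seen. Further patterns searched were CAAAGTNCA for HNF4, found in Sult1b1 and in 1.41% of all promoters, and TTCNNNGAA for STAT5, found in Gsta1, Gstm6, Mgst1 and Ugt1a6a and in 8.30% of all promoters. A match describes letters and is no evidence of binding.

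The first comparison, old against young controls, asked which conjugation enzymes differ between 25 and 9 months. With edgeR's quasi-likelihood test 10 of the 47 members passed an adjusted p of 0.05, or 21.3%, close to the 22.8% of all 13909 genes tested. Of these 9 were lower in old livers, 19.1% of members against 8.66% of all genes, and 1, Sult2a7, was higher, 2.13% against 14.1%. The log2 fold change was positive for 11 and negative for 36 of 47 members, where 52.4% of all genes had a positive value, and its median was -0.37, against 0.04 over all genes. All 18 UDP-glucuronosyltransferases had a negative value, as did 15 of 20 glutathione S-transferases, but only 2 of 7 sulfotransferases. Of the 18, 8 are Ugt1a symbols that share most of their reads, and outside them 28 of 39 members had a negative value.

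**Figure D1:**
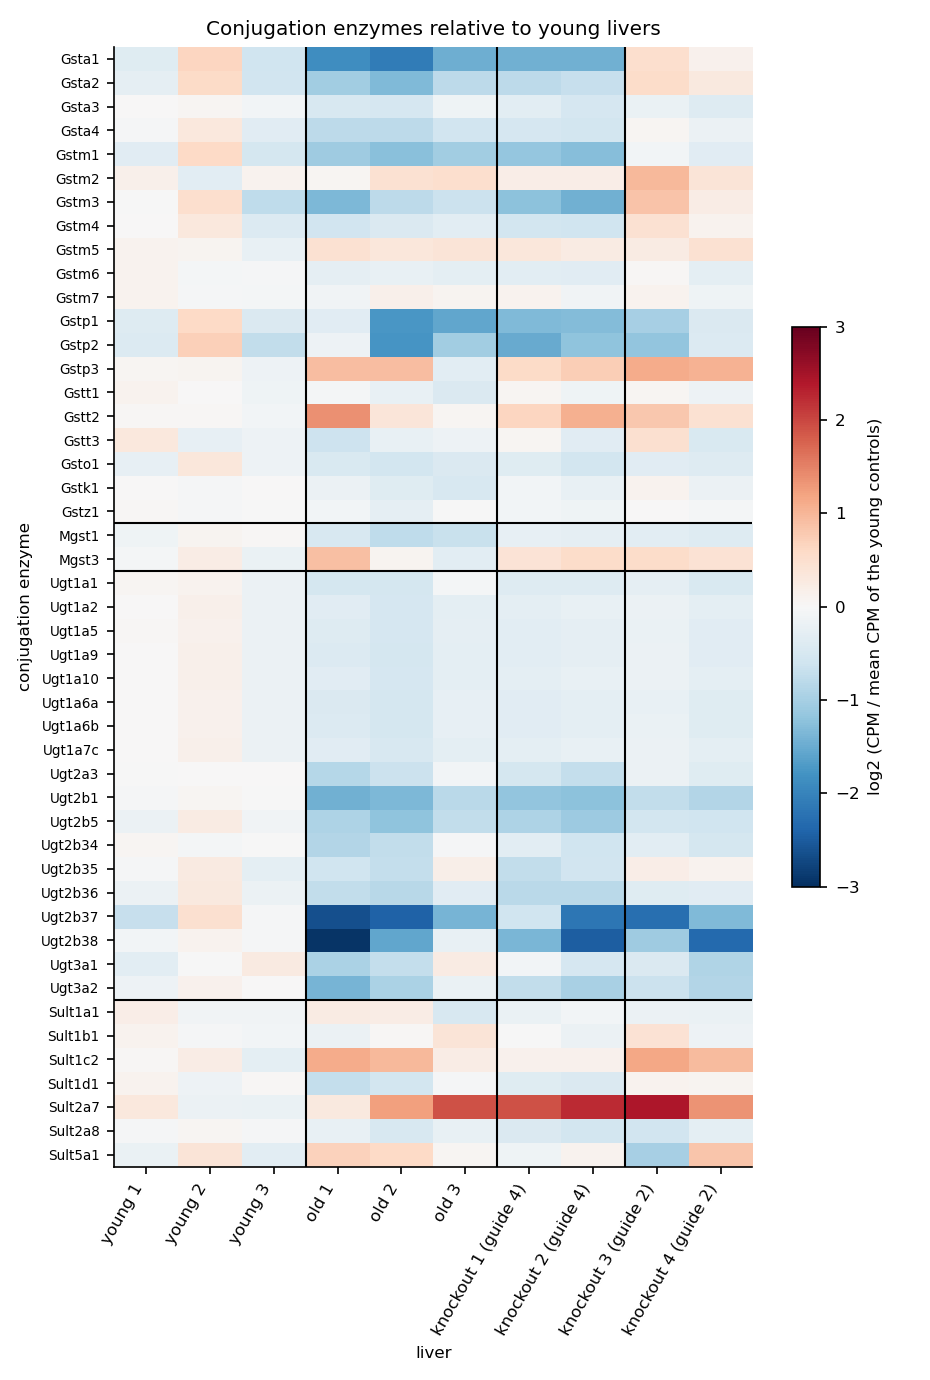
Level of each of the 47 members in each of the 10 livers (columns), as the log2 ratio of its CPM to the mean of the 3 young controls, with blue lower and red higher; horizontal lines part the 4 enzyme families and vertical lines the groups. Most rows are blue in the old controls, Sult2a7 is red in all 7 old livers and palest in old replicate 1, and Gsta1, Gsta2 and Gstm3 are red in both guide 2 livers.

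Among the alpha class, Gsta1 and Gsta2 detoxify organic peroxides and Gsta4 conjugates the lipid aldehyde 4-hydroxynonenal. Gsta1 was at 110, 217 and 93.1 CPM in the young and at 38.4, 32.5 and 50.4 CPM in the old controls. The groups did not overlap, and the young replicate 2 stood well above the others. Its log2 fold change, old minus young, was -1.79 ± 0.52 (SE, n = 3 and 3), with an edgeR adjusted p of 0.0329. Gsta4 fell from 109, 141 and 88.7 CPM to 65.4, 65.2 and 75.5 CPM, again without overlap, with a log2 fold change of -0.72 ± 0.20 at an edgeR adjusted p of 0.0279. Gsta2 had 70.1, 128 and 57.2 CPM in young and 41.0, 33.8 and 49.7 CPM in old controls, also without overlap, but its edgeR adjusted p was 0.0737. Of the 75-base windows of Gsta1, a read length, 84.7% occur identically in other genes, most of them in the predicted gene Gm3776, and 36.6% of those of Gsta2 do, so their separate counts are uncertain. Gsta1 and Gsta2 summed gave a log2 fold change of -1.46 ± 0.46 with an edgeR adjusted p of 0.0433. Gsta3, the most abundant alpha enzyme by count and the main mouse enzyme against aflatoxin epoxide, was at 1847, 1889 and 1724 CPM in young and 1311, 1291 and 1673 CPM in old controls (edgeR adjusted p 0.11).

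The mu class was carried by Gstm1, a main cytosolic transferase of mouse liver. Gstm1 had 5349, 10170 and 4666 CPM in young controls and 3207, 2820 and 3265 CPM in old controls. The old values lay close together and below every young value, while young replicate 2 was about as high as the other young livers together. Its log2 fold change was -1.12 ± 0.36, a 2.17-fold lower level, with an edgeR adjusted p of 0.0443. The remaining mu genes did not pass. Gstm3 and Gstm4 had log2 fold changes of -0.90 ± 0.54 and -0.43 ± 0.28, Gstm6 one of -0.26 ± 0.13, and Gstm2, Gstm5 and Gstm7 had positive values of 0.35 ± 0.22, 0.40 ± 0.14 and 0.05 ± 0.12. Summed over the class, levels were 6208, 11180 and 5298 CPM in young and 3725, 3467 and 3941 CPM in old controls, mostly those of Gstm1.

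Gstp1, the pi class enzyme, did not pass. It was at 2421, 4773 and 2335 CPM in young and at 2512, 941 and 1075 CPM in old controls. Old replicate 1 lay within the young range, and the other old livers lay far below it. The log2 fold change was -1.07 ± 0.41 with an edgeR adjusted p of 0.0801, and Gstp2, 50.1% of whose windows occur in other genes, had -0.83 ± 0.45. Gstp3 had 0.62 ± 0.28 in the other direction. Of the other classes only Gsto1, an omega enzyme that reduces mixed disulfides and methylated arsenic, passed. Gsto1 fell from 79.9, 121 and 85.5 CPM to 69.7, 65.1 and 70.4 CPM, with a log2 fold change of -0.48 ± 0.15 at an edgeR adjusted p of 0.0461. The theta enzymes Gstt1, Gstt2 and Gstt3, the kappa enzyme Gstk1 and the zeta enzyme Gstz1, which acts in tyrosine breakdown, did not pass, with log2 fold changes from -0.34 for Gstk1 to 0.72 for Gstt2.

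Mgst1, the membrane enzyme that was next to Gstm1 in abundance per length, passed. It was at 4432, 5067 and 4943 CPM in young and at 3467, 2854 and 3013 CPM in old controls. No old liver reached the lowest young one, and the log2 fold change was -0.63 ± 0.14 with an edgeR adjusted p of 0.0147. Mgst3 had 22.2, 27.0 and 20.3 CPM in young and 43.6, 24.4 and 18.7 CPM in old controls, which differed by 0.32 ± 0.25 on the log2 scale (edgeR adjusted p 0.374) and by -0.11 without old replicate 1.

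The 2 members with the lowest adjusted p for age, Ugt2b1 and Ugt2b5, belong to the Ugt2b family, which glucuronidates steroids, fatty acids and drugs. Ugt2b1 was at 523, 563 and 533 CPM in young controls and at 198, 212 and 310 CPM in old controls. The young livers lay close together, and every old liver lay far below them. The log2 fold change was -1.17 ± 0.20, a 2.25-fold lower level, with the lowest edgeR adjusted p of any member, 0.00783. Ugt2b5 fell from 973, 1315 and 1034 CPM to 585, 477 and 668 CPM, without overlap and with a log2 fold change of -0.94 ± 0.20 at an edgeR adjusted p of 0.0116. Ugt2b37, a minor gene with 52 to 338 reads in these 6 livers, fell from 9.98, 22.3 and 15.7 CPM to 2.56, 2.96 and 6.06 CPM. Its log2 fold change of -2.05 ± 0.48 was the most negative of all members (edgeR adjusted p 0.0161).

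Ugt2b38, a close copy of Ugt2b5, had 163, 184 and 168 CPM in young and 22.4, 57.7 and 146 CPM in old controls. The old livers spread widely, the highest near the young ones, and the log2 fold change of -1.19 ± 0.55 did not pass (edgeR adjusted p 0.136). Because 30.4% of the windows of Ugt2b5 and 28% of those of Ugt2b38 occur in other genes, the counts of Ugt2b5, Ugt2b37 and Ugt2b38 were also summed. The sum fell by 0.98 ± 0.21 on the log2 scale with an edgeR adjusted p of 0.0123. Ugt2b34, Ugt2b35, Ugt2b36 and Ugt2a3 had values of -0.50, -0.32, -0.62 and -0.49 and did not pass, the nearest being Ugt2b36 with an edgeR adjusted p of 0.0518.

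Ugt3a2, of a family that uses sugars other than glucuronic acid, fell from 395, 477 and 440 CPM to 165, 226 and 378 CPM. Old replicate 3 was close to the lowest young liver, though the groups did not overlap, and the log2 fold change was -0.77 ± 0.25 (edgeR adjusted p 0.0462). Old replicate 3 was also the highest old control for Ugt2b1, Ugt2b5, Ugt2b37, Ugt2b38 and Ugt3a1. Over all members the old controls stood in the order replicate 1, 2, 3 from low to high for 14 of 47, or 29.8%, against 25.7% of all genes tested. Ugt2b1, Ugt2b38 and Ugt3a2 are among the 14. The Ugt1a reads outside the shared part, described below, rose in the same order, at 8.39%, 29.6% and 66.7% of that part. Whether the evenness of reads along transcripts differed between livers was not tested for any member.

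Sulfotransferases had no common direction. Sult2a7, of the hydroxysteroid class, was at 3.92, 2.77 and 2.72 CPM in young and at 3.83, 7.34 and 11.7 CPM in old controls, from 42 to 246 reads. The lowest old liver lay below the highest young one, and the log2 fold change was 1.28 ± 0.39 with an edgeR adjusted p of 0.0388. The other gene of its class above the minimum, Sult2a8, the most abundant sulfotransferase by count and an enzyme of bile acid sulfation in mouse liver, had 613, 655 and 607 CPM in young and 531, 448 and 533 CPM in old controls. Its groups did not overlap, but its log2 fold change of -0.31 ± 0.13 did not pass (edgeR adjusted p 0.115). Sult1a1, the phenol sulfotransferase, had 403, 327 and 327 CPM in young and 416, 412 and 253 CPM in old controls. Young and old livers overlapped, with a log2 fold change of 0.03 ± 0.19. Sult1d1, which acts on catecholamines, had 119, 98.5 and 113 CPM against 66.8, 75.2 and 108 CPM, and did not pass (edgeR adjusted p 0.169). Sult1c2 (0.81 ± 0.35), Sult5a1 (0.47 ± 0.38) and Sult1b1 (0.10 ± 0.19) did not pass either.

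**Figure D2:**
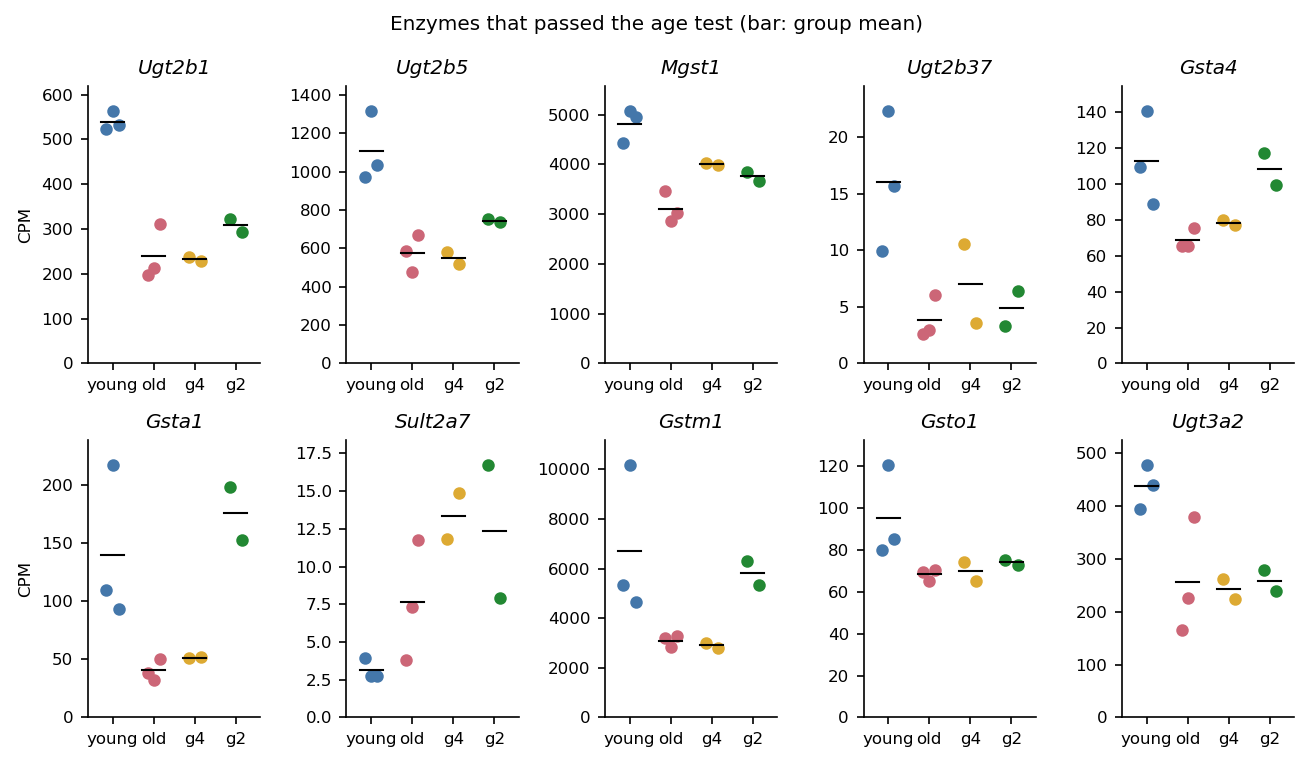
CPM (vertical axis, linear from 0) of the 10 members that passed the age test, 1 panel per gene, in young controls, old controls and the knockout livers with guide 4 (g4) and guide 2 (g2); points are livers and bars group means. In 9 panels every old control lies below every young control, as for Ugt2b1 with 198 to 310 CPM against 523 to 563 CPM, and in the Sult2a7 panel the groups overlap. The test that picked these members used the same values, so the choice favours separation, and the share of all genes without overlap is not given.

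The number of members that passed moved with single livers, as did the calls over all genes. Without young replicate 2 only Ugt2b1 passed (2.13% of members, against 2.80% of all genes), and without old replicate 2 only Ugt2b1 and Ugt2b5 (4.26% against 7.35%). Without young replicate 1 there were 5 (10.6% against 11.9%), and without old replicate 3 there were 27, 24 of them lower (57.4% against 37.7%). DESeq2 called 24 (51.1% against 28.2%), and a fit without the knockout livers called 4 (8.51% against 8.90%). Of the 10 genes only Ugt2b1 passed in all 12 alternatives run.

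The Ugt1a symbols need a separate account, because all 8 are spliced from their own first exon to the same last exons and the table counts the shared reads for each. Ugt1a1 encodes the bilirubin glucuronosyltransferase, and Ugt1a6a and Ugt1a6b act on planar phenols. In GENCODE M21 they share 1311 bases of exon, and Ugt1a1 has 913 bases of its own. In every liver the highest of the 8 counts was between 1.05 and 1.40 times the lowest, so the 8 rows are nearly 1 measurement. As deposited, Ugt1a1 had 1322, 1373 and 1137 CPM in young and 886, 881 and 1234 CPM in old controls. Ugt1a6a had 1163, 1267 and 1024 CPM against 857, 798 and 966 CPM, and Ugt1a6b had 1155, 1252 and 1016 CPM against 855, 796 and 956 CPM. None of the 8 passed, with log2 fold changes from -0.40 to -0.35.

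Taking the lowest of the 8 counts as the shared part and what each symbol had above it as its own part separated these. The shared part was at 1088, 1190 and 956 CPM in young and 847, 766 and 885 CPM in old controls, without overlap (log2 fold change -0.37 ± 0.14, edgeR adjusted p 0.0694). The own parts, summed over the symbols, came to 43.4%, 34.7% and 40.3% of the shared part in young controls and to 8.39%, 29.6% and 66.7% in old controls. The young livers lay close together, while the old ones spread to both sides of them. With guide 4 the shares were 25.5% and 12.5%, and with guide 2 they were 25.5% and 10.8%, all below every young liver. Ugt1a1 made up 44.3% to 59.2% of the own part in each liver. Its own part was at 233, 183 and 182 CPM in young controls, 39.0, 116 and 350 CPM in old controls, and between 48.2 and 113 CPM in the knockout livers. It did not pass in the age comparison (log2 fold change -0.25 ± 0.59, edgeR adjusted p 0.788) or between knockout and old controls (-1.02 ± 0.55, edgeR adjusted p 0.771). The own exon of Ugt1a1 has 69.6% of the length of the shared exons. An own part holds all reads of a symbol above the shared part, not only those of its first exon. Of the 4312 exon bases of Ugt1a6a, 1311 are shared by all 8 symbols and 2142 are its own alone. Reads that only some symbols share enter more than 1 own part, and so also the sum and the locus counted once. The evenness of reads along the transcripts was not tested. Own parts and their shares are therefore no direct measure of enzyme levels.

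**Figure D3:**
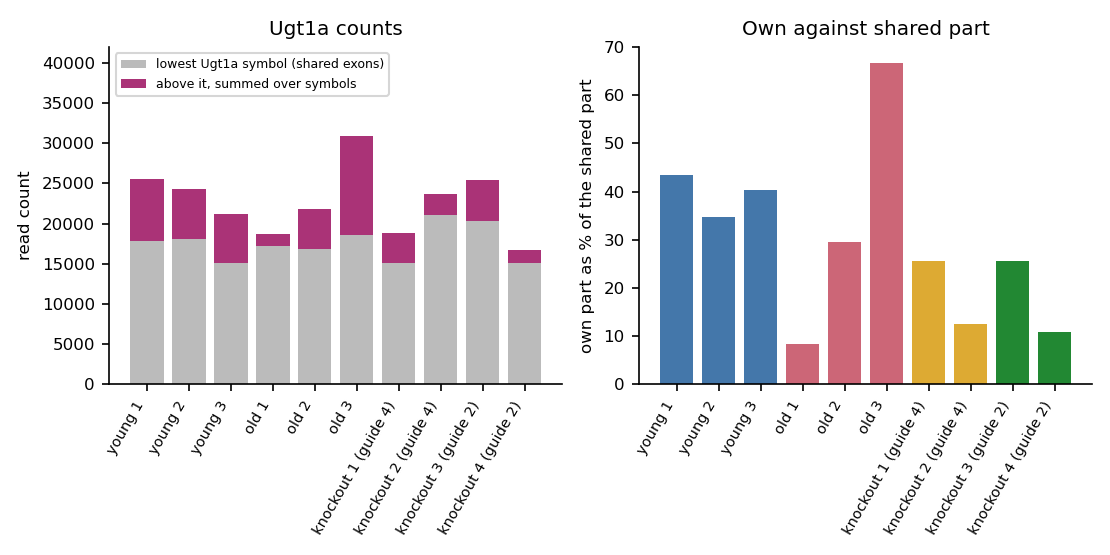
Ugt1a reads in each of the 10 livers: on the left the read count of the lowest Ugt1a symbol (grey) with the reads above it summed over symbols (purple), on the right the second as a percentage of the first. The shared part runs from 15038 to 21051 reads, and the own part runs from 8.39% in old replicate 1 to 66.7% in old replicate 3.

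Lists chosen by function held mostly genes that make, carry or break down the donors or their products, so not every listed gene makes a donor. The glucuronidation list also held Slc37a4, a carrier of glucose 6-phosphate. It was at 182, 199 and 173 CPM in young and 114.5, 118.5 and 111.8 CPM in old controls. Counts of called genes stand beside the 8.66% of all genes that were lower and the 14.1% that were higher in old controls. For glucuronidation 2 of 6 tested genes fell with age and none rose. Ugdh, which makes UDP-glucuronic acid, was at 404, 535 and 344 CPM in young and 201, 193 and 311 CPM in old controls (log2 fold change -0.86 ± 0.22, edgeR adjusted p 0.0229). For glutathione supply and breakdown 4 of 11 fell, Gclc, Gss, Gsr and Cth, with log2 fold changes from -0.83 to -0.57, and none rose. Gclc, the catalytic subunit of the rate-limiting enzyme, was at 439, 641 and 335 CPM against 293, 211 and 291 CPM. For sulfation 1 of 7 rose, Slc35b2, a PAPS transporter of the Golgi (0.58 ± 0.13), and 1 fell, Bpnt1, which degrades the by-product PAP (-0.77 ± 0.23). Papss2, a PAPS synthase, had 0.61 ± 0.20 and an edgeR adjusted p of 0.0511.

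Among 14 other conjugating enzymes 4 fell with age and none rose, against the same 8.66% lower and 14.1% higher over all genes. They were Baat and Glyat, which join bile acids and acyl groups to amino acids, the methyltransferase Nnmt, and Acsm3, which activates medium-chain acids, with log2 fold changes from -1.22 for Nnmt to -0.52 for Glyat. Of 8 hydrolases and reductases that work beside conjugation 3 fell, Ephx1, Ephx2 and Akr1a1. Of 10 receptors and factors that regulate these genes 1 fell, Hnf4a at -0.96 ± 0.22, a share near that of all genes. Ahr, Nfe2l2, Nr1i2 and Nr1i3, which encode the aryl hydrocarbon receptor, NRF2, PXR and CAR, did not pass, with values of -0.13, 0.29, -0.20 and 0.44. Among genes with a known sex bias in mouse liver 7 of 11 male-biased ones fell, with a median of -1.11, and 2 of 10 female-biased ones rose, Cyp2b9 and Hao2, the latter count near the share of all genes.

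The second comparison, all 4 knockout livers against the 3 old controls, addressed the effect of Cd44 editing in hepatocytes at 25 months. No member passed, nor did any of the 13909 genes, a background of 0%. At an unadjusted p of 0.05, 4 of 47 members passed by edgeR, or 8.51%, against 6.59% of all genes, and DESeq2 called 0 members. The log2 fold change was positive for 35 of 47, against 45.6% of all genes, with a median of 0.11, against -0.02 over all genes. Of the 47, 8 are Ugt1a symbols that share most of their reads. Summed levels differed between the guides. With the Ugt1a locus entered once, the summed level of all members had a log2 ratio to old controls of 0.4 with guide 2 and 0.0 with guide 4. For the glutathione S-transferases the ratios were 0.6 and -0.09. Much of these sums is Gstm1, so they do not describe the members one by one. The mean transferase sum was 8119 CPM in old controls and 12270 CPM with guide 2, and Gstm1 alone had 3097 and 5833 CPM. The lowest unadjusted p belonged to Gsta1, Gsta2 and Gsta4. Beside this, the macrophage marker sum was 192 to 386 CPM in knockout livers against 245 to 1000 CPM in old controls, and the endothelial sum was 130 to 198 against 229 to 246 CPM, with 0 markers of either list past the test.

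**Figure D4:**
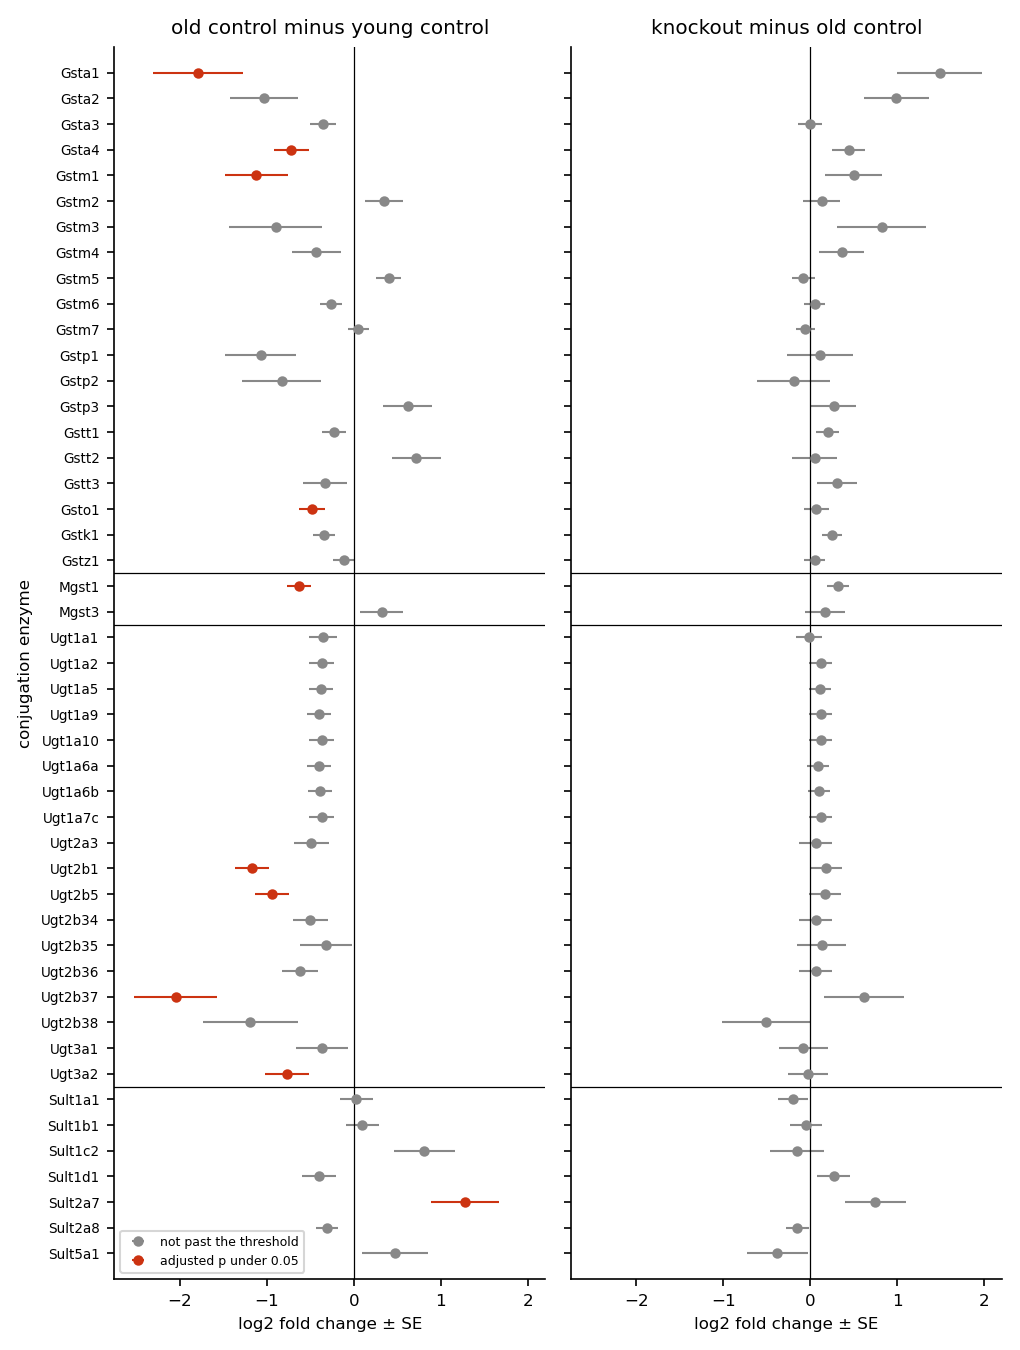
Log2 fold change with its standard error (horizontal axis) of each member for old minus young controls (left) and for knockout minus old controls (right); red marks an adjusted p under 0.05 by edgeR and horizontal lines part the families. On the left 9 red points lie below 0 and Sult2a7 lies above it, and on the right there is no red point (both panels use the same old controls).

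Gsta1 had 51.2 and 51.7 CPM in guide 4 livers, just above the highest old control of 50.4 CPM. With guide 2 it had 199 and 153 CPM, within the range of the young controls. Gsta2 had 48.9 and 52.4 CPM in guide 4 livers and 125 and 104 CPM in guide 2 livers, against 33.8 to 49.7 CPM in old controls. Gsta4 had 80.1 and 77.0 CPM in guide 4 livers and 117 and 99.5 CPM in guide 2 livers, against 65.2 to 75.5 CPM. For all 4 knockout livers together the log2 fold changes were 1.49 ± 0.49 for Gsta1, 0.99 ± 0.37 for Gsta2 and 0.44 ± 0.19 for Gsta4 (n = 4 and 3), with edgeR adjusted p of 0.744, 0.744 and 0.748.

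Guide 2 livers against old controls gave 3 called genes of 13909, or 0.0216%, and none of the 47 members. Gsta1 came nearest with a log2 fold change of 2.12 ± 0.33 (n = 2 and 3) and an edgeR adjusted p of 0.0709. At an unadjusted p of 0.05, 7 of 47 members passed by edgeR, or 14.9%, against 7.04% of all genes. They were Gsta1, Gsta2 (1.46 ± 0.30), Gstm3 (1.48 ± 0.34), Gstm1 (0.91 ± 0.30), Gstm4 (0.73 ± 0.20), Gsta4 (0.66 ± 0.19) and Sult1d1 (0.50 ± 0.19). DESeq2 called Gsta1, Gsta2 and Gstm3 higher with guide 2, 6.38% of members against 0.769% of all genes, and edgeR without the low-count filter called Gsta1.

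Guide 4 livers against the same old controls gave 0 called members and 0 called genes of 13909, or 0%. At an unadjusted p of 0.05, 2 of 47 members passed by edgeR, Sult1c2 (-0.69 ± 0.30) and Mgst1 (0.37 ± 0.16), against 3.91% of all genes, and DESeq2 called 0 members. Mgst1 had 4035 and 3982 CPM in guide 4 livers and 3848 and 3667 CPM in guide 2 livers, between the old and the young controls in all 4 livers.

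Both guides were set against each other directly. Of 13909 genes 3, or 0.0216%, passed, all lower with guide 4, and none was a member. At an unadjusted p of 0.05, 9 of 47 members passed by edgeR, or 19.1%, against 4.34% of all genes, and all 9 were lower with guide 4. Gstm3, a mu class gene, had 177 and 155 CPM in guide 4 livers and 759 and 485 CPM in guide 2 livers. The guides did not overlap, and the log2 fold change for guide 4 minus guide 2 was -1.91 ± 0.39 (n = 2 and 2) with an edgeR adjusted p of 0.281. The old controls held 163, 242 and 266 CPM and the young controls 416, 589 and 248 CPM. Of the 75-base windows of Gstm3 21.6% occur in other genes, and of those of Gstm1 11.7% do, so both counts carry some uncertainty.

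Gsta1 had a guide difference of -1.77 ± 0.37 with the same edgeR adjusted p of 0.281, and DESeq2 called both Gsta1 and Gstm3, 4.26% of members against 0.525% of all genes. Gstm4 had 89.7 and 87.0 CPM in guide 4 livers and 180 and 142 CPM in guide 2 livers, a log2 difference of -0.87 ± 0.23 (edgeR adjusted p 0.497). In old controls Gstm4 had 88.1 to 106 CPM and in young controls 98.4 to 163 CPM. Gstm1 had 3009 and 2795 CPM in guide 4 livers, within and just below the range of the old controls, and 6324 and 5342 CPM in guide 2 livers, in the range of the young controls (-1.01 ± 0.33, edgeR adjusted p 0.841). With 2 livers per guide, a guide cannot be told apart from the animals that received it.

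**Figure D5:**
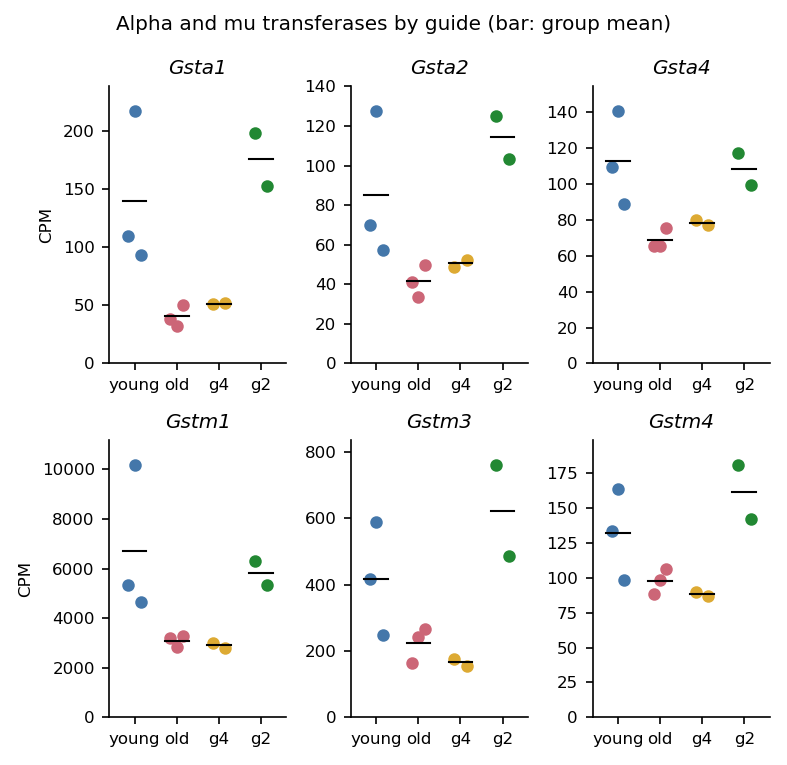
CPM (vertical axis, linear from 0) of 3 alpha and 3 mu class transferases in young controls, old controls and the knockout livers with guide 4 (g4) and guide 2 (g2); points are livers and bars group means. The genes shown are the alpha and mu members with an unadjusted p under 0.05 by edgeR for guide 2 against old controls, so the choice favours separation. In each panel both guide 2 livers lie above all old controls and above both guide 4 livers, for Gstm1 at 6324 and 5342 CPM against 2820 to 3265 and 2795 to 3009 CPM. Of the same classes Gsta3, Gstm2, Gstm5, Gstm6 and Gstm7, not shown, overlapped between guide 2 livers and old controls. The share of all genes without overlap is not given.

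In the other families Sult1c2 (-0.93 ± 0.33), Ugt2b35 (-0.81 ± 0.29) and Sult1d1 (-0.49 ± 0.21) were among the 9, and the rest were not. The Ugt1a locus counted once had 1097 and 1033 CPM in guide 4 livers and 1199 and 972 CPM in guide 2 livers. Ugt2b1 had 239 and 230 CPM in guide 4 livers and 323 and 294 CPM in guide 2 livers, all below the young controls (guide difference -0.40 ± 0.21, edgeR adjusted p 1). Sult2a8 had 461 and 426 CPM against 420 and 510 CPM, with overlap. Of the 8 listed hydrolases and reductases, none passed between guide 2 livers and old controls. Cbr3, a carbonyl reductase, had 25.1 and 17.4 CPM in guide 2 livers, 2.62 and 2.97 CPM in guide 4 livers and 2.46 to 3.82 CPM in old controls (guide 2 against old controls 2.83 ± 0.40, edgeR adjusted p 0.0561). Nqo1, the quinone reductase often read as an NRF2 target, had 38.8 and 30.2 CPM in guide 2 livers, 10.6 and 15.6 CPM in guide 4 livers and 13.0 to 21 CPM in old controls (1.1 ± 0.24, edgeR adjusted p 0.228). Cbr3 and Nqo1 were picked after their values were seen. Elsewhere in that list Ephx1, Nqo2 and Cbr1 lay above the old controls in both guide 2 livers, while Ephx2, Akr1a1 and Akr7a5 overlapped them. The share of all genes without such overlap is not given, so these positions are only described. A response of NRF2 was not tested.

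The last comparison set the knockout livers against the young controls, which differ in age, in age at injection and in guide. By edgeR 5 of 47 members passed, or 10.6%, against 11.6% of all genes. Higher was 1 of 47, against 6.64% of all genes, and lower were 4 of 47, against 4.97%. Sult2a7 was higher, with 11.8, 14.9, 16.7 and 7.94 CPM in the knockout livers against at most 3.92 CPM in young controls (log2 fold change 2.03 ± 0.38, edgeR adjusted p 0.0159). Ugt2b1 (-0.99 ± 0.18), Ugt2b5 (-0.77 ± 0.18), Ugt3a2 (-0.80 ± 0.23) and Sult2a8 (-0.46 ± 0.13) were lower. Ugt2b5 had 583 and 519 CPM in guide 4 livers and 753 and 735 CPM in guide 2 livers, and Ugt3a2 had 262 and 224 CPM in guide 4 livers and 278 and 239 CPM in guide 2 livers, all below the lowest young control. Without young replicate 2 or young replicate 3 no member passed, and 2, Sult2a7 and Ugt2b1, passed without young replicate 1 or knockout replicate 2, 3 or 4. DESeq2 called 18 members (38.3%, against 20.2% of all genes), and a fit of these groups alone called 17 (36.2% against 31.0%).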

How the data were processed

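The authors deposited 1 table of raw read counts, whole numbers per gene symbol with 1 column per liver. Per the labels' protocols, polyadenylated RNA was sequenced as paired 75-base reads. Per the submitters' processing notes, the build was mm10 and FastQC 0.11.8, Trim Galore 0.4.4, STAR 2.5.3a and HOMER were used; annotation and use of strand are not given in the sources used here, so overlapping genes and near-identical copies carry an uncertainty. Counts as deposited were fitted with edgeR 4.0.16 (R 4.3.3), quasi-likelihood, TMM factors, 1 coefficient per group (per guide for the guide comparisons), after filterByExpr (minimum count 10, total 15), which left 13909 genes including all 47 members. P-values were adjusted over all of them by Benjamini-Hochberg, with 0.05 as threshold. The standard error is the size of the log2 fold change over the square root of F. CPM use TMM factors. The biological coefficient of variation was 21.8%. The fit by group was also run on simulated counts with the same spread for every gene. The guide comparisons were not simulated, and the outcome is not given here. Alternatives were DESeq2 1.42.0, RLE factors, no filter, limma voom 3.58.1, only the groups compared, and each liver left out. Summing near-identical copies and entering the Ugt1a locus as 1 row were added after seeing the data. Named genes are the 3 most abundant members of each family, those that passed the age test, the 3 lowest p of the knockout and guide comparisons, and listed pathway genes; others named were chosen after their values were seen. Members, lists and motifs were chosen with earlier results of these data known. Replicate numbers follow the sample records and pair nothing. The reads carry no molecular identifiers. Some listed genes and motifs are not reported here.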

Additional observations from a re-analysis of the deposited data

Results flagged for a closer look

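In 1 of the 47 members a knockout liver stood apart from the other 3. Gstm6, a mu class transferase, was at 109 and 107 CPM with guide 4 and at 110 CPM in replicate 4 with guide 2, while replicate 3, also guide 2, was at 138 CPM. The gap to the nearest liver took up 0.884 of the whole range, above Dixon's 95% critical value for 4 samples. Chance alone gives about 1 in 20, or 2.35 of 47.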

How the results depend on the processing

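The number of members past the threshold for age, 10 as reported, was 24 with DESeq2, 4 with only the groups compared, and from 1 to 27 with 1 liver left out. RLE factors gave 11, no low-count filter 8, limma voom 7 and the Ugt1a locus as 1 row 10. Knockout against old controls gave 0 in every alternative run, as did guide 4 against old controls. Knockout against young controls, 5 as reported, gave 18 with DESeq2, 17 with only the groups compared and 0 to 4 with 1 liver left out. Guide 2 against old controls, 0 as reported, gave 3 with DESeq2, 1 without the low-count filter and 0 to 0 with 1 liver left out, and the guide difference, also 0, gave 2 with DESeq2. The cause was not tested. Of the named members' alternative values 231 kept direction and side of the threshold, 42 dropped below it, 13 passed it and 5 changed sign. With 1 liver left out, the age value of Mgst3 ran from -0.11 (without old control replicate 1) to 0.55, and that of Sult1a1 from -0.09 to 0.23. The latter was -0.02 without young control replicate 2 or 3, -0.09 without old control replicate 1 and -0.08 without old control replicate 2. Where leaving out a liver left a guide with 1, that liver was assumed to vary like the others. No paired analysis was possible because nothing in the labels links a liver of 1 group to a liver of another. With 2 to 4 livers a group, differences the size of the standard errors above were not detectable.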
